A study of Mus musculus with 8 samples.

Results

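The regions described here were called as accessible chromatin in wild-type mouse macrophages after lipopolysaccharide (LPS) and in no other library of the study. Merging the peaks of the 8 ATAC-seq libraries wherever they shared 1 bp or more gave 76751 regions, 75252 of them on chromosomes 1 to 19. A region was a member when both libraries of LPS-treated wild-type (WT) cells had a peak in it and none of the other 6 libraries did. This held for 1813 regions, 2.41% of the 75252. Members were chosen by the peak calls themselves, so their absence from the other 6 libraries is a description and was not tested.

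ATAC-seq uses the Tn5 transposase to cut and tag DNA that is not covered by nucleosomes. Bone marrow cells were cultured for 7 days to give macrophages, which were left untreated or activated for 6 h with LPS, then cryopreserved in 5% DMSO and thawed before tagmentation. The question was which chromatin LPS opens or closes and whether this depends on Lamin-A. The 4 groups, of 2 libraries each, were WT macrophages with LPS, Lamin-A knockout (KO) macrophages with LPS, untreated WT macrophages and untreated KO macrophages. The dose of LPS, the strain and age of the mice, the targeted part of Lmna and the cells in which it was deleted are not given in the sources used here. Whether the 2 libraries of a group stem from separate animals is not labelled, so p-values reflect only the spread between these samples, which may be technical. A peak list cannot show the loss of Lamin-A, and the knockout was not checked. All 8 macrophage marker genes tested, Csf1r and Adgre1 among them, had a peak at a gene end in all 8 libraries. Of the markers of other cell types, those of B cells and of T and NK cells had no such peak in any library, and 2 of 5 neutrophil markers had one in each. Dendritic cell markers had it in 0 to 1 of 4 genes by library, erythroid and megakaryocyte markers in 0 to 1 of 5, and stem and progenitor markers in 0 to 1 of 3. The stromal and endothelial markers had 2 of 4 in each WT LPS library, 1 of 4 in each KO LPS library and 1 of 4 in each untreated library. One of these markers, Cdh5, had a member 0.092 kb from a gene end. By the rule only the WT LPS libraries held that peak, so this contrast may have been fixed in advance.

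LPS is a component of the outer membrane of Gram-negative bacteria that macrophages sense through Toll-like receptor 4. The receptor acts through MyD88 and TRIF to activate NF-kB, AP-1 and interferon regulatory factors, which bind enhancers already marked by the macrophage factors PU.1 and C/EBP and open others. Lamin-A, encoded by Lmna, is a filament protein of the nuclear lamina, the meshwork under the nuclear envelope that holds inactive, gene-poor chromatin at the edge of the nucleus.

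Sequence could be read for the members that lay in promoters, taken as the window from 250 bases before to 50 bases after a RefSeq start site (build GRCm38.p6, the sequence of mm10). Of the 1813 members, 22 had their summit in such a window, and these fell in 26 windows, 18 of them of protein-coding genes. The 5 promoters that follow were chosen after their values were seen, to show the strongest promoter member (Slc28a2), the sites of the LPS-activated factors NF-kB and AP-1 where present, and members at an inflammatory enzyme (Ptges) and a kinase of the IKK family (Ikbke). They are written 5′ to 3′ on the strand of the gene, with a match to a searched motif in capitals. In Serpina3g the capitals mark the NF-kB motif (GGG, any 2 bases, TTTCC), in Iqcf1 TGANTCA, the AP-1 motif, at 2 places, and in Ikbke first GAGGAAG, the PU.1 motif, and then TGANTCA. The promoters of Slc28a2 and Ptges held none of the motifs searched.
Slc28a2 (chr2:122426185-122426484, + strand): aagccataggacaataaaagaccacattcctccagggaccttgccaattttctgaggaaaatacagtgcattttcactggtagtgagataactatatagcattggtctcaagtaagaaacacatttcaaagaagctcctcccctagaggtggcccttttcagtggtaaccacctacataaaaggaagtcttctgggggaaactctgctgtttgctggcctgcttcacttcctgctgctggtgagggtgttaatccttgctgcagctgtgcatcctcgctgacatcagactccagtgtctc
Serpina3g (chr12:104235897-104236196, + strand): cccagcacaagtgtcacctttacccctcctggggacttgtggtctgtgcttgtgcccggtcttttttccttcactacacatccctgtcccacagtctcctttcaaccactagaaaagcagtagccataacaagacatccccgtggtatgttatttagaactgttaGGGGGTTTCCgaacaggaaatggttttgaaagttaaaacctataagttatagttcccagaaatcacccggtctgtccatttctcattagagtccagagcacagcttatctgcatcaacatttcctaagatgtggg
Iqcf1 (chr9:106499717-106500016, + strand): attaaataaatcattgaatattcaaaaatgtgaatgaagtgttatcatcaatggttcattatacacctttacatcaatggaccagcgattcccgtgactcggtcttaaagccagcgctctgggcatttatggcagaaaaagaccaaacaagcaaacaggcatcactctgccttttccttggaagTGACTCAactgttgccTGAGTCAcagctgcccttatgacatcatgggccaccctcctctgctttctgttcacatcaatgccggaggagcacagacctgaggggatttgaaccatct
Ikbke (chr1:131279514-131279813, - strand): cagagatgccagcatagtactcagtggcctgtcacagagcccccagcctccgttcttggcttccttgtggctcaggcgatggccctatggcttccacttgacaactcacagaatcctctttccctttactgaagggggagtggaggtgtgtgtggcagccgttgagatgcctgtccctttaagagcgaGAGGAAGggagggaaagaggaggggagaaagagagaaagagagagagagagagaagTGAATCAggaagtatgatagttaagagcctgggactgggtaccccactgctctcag
Ptges (chr2:30903248-30903547, - strand): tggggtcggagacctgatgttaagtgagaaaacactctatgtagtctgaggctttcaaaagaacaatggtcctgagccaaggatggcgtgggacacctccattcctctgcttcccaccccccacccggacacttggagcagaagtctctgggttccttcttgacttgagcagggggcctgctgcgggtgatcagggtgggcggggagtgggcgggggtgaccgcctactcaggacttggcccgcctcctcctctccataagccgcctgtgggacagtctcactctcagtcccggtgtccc

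Peak strength is given as the authors' fold enrichment over local background and as the -log10 p of the peak, WT LPS replicate 1 before replicate 2. At Slc28a2, a nucleoside transporter, the fold enrichment was 8.08 and 6.58, with the summit 94 bp before the start site. At Serpina3g, a serine protease inhibitor, it was 6.89 and 5.97, and at Iqcf1 it was 5.82 and 7.04. At Ptges, which makes prostaglandin E2, it was 4.33 and 3.48, and at Ikbke, the kinase IKK-epsilon, it was 2.29 and 2.54. By the rule, none of the 5 had a peak in any KO LPS, WT untreated or KO untreated library. Of the members' 26 promoter windows, 4 (15.4%) held TGANTCA, 2 (7.69%) the NF-kB motif, 5 (19.2%) the C/EBP motif TTGCNNAA, 1 (3.85%) GAGGAAG and 1 (3.85%) the interferon-response motif (GAAA, any 2 bases, GAAA), on either strand. In the 30 windows under regions that LPS opened in both genotypes, TGANTCA stood in 13 (43.3%), TTGCNNAA in 10 (33.3%), GAGGAAG in 6 (20%), the NF-kB motif in 1 (3.33%) and the interferon-response motif in 1 (3.33%). Over all 31365 windows of chromosomes 1 to 19 with a sequence the shares were 7.85% for TGANTCA, 10.9% for TTGCNNAA, 13.4% for GAGGAAG, 1.66% for the NF-kB motif and 3.45% for the interferon-response motif. The CTCF motif, in 0.271% of all windows, was in 0 of the 26 and 0 of the 30. These windows are few and some overlap, so a site can count more than once. The C/EBP matches in the windows of Gm38653 and Gm41022, which lie over the same member, are 1 site. A match to letters is a description, not a bound site. The members outside promoters, which are nearly all of them, were not searched.

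The members were part of a larger set that LPS opened in WT cells. In WT, both LPS libraries and no untreated library held 7629 regions, which is 10.1% of regions, and 6054 (8.04%) were gained in the same way in KO. Of the 7629, 3658 (47.9%) had a peak in each KO LPS library too and none in untreated KO cells; these are the regions opened by LPS in both genotypes, 4.86% of all regions. A further 1492 (19.6%) were called in 1 KO LPS library and in no untreated one. The 1813 members were 23.8%. Set against KO LPS libraries alone, 5195 regions (6.9%) had a peak in each WT LPS library and none with LPS in KO, so the members were the part of these that untreated cells of either genotype also lacked.

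The same rule applied to each other group shows how many regions a pair of libraries holds alone. It gave 284 regions (0.377%) for the KO LPS libraries, 1562 (2.08%) for the WT untreated libraries and 151 (0.201%) for the KO untreated libraries. Both WT groups thus held many regions alone and both KO groups few, with or without LPS. The mean length of the lists followed the same order, with 59750 and 55357 peaks in the WT LPS libraries, 49661 and 45442 in the KO LPS libraries, 53942 and 55064 in the WT untreated libraries and 44504 and 47451 in the KO untreated libraries. When every list was cut to its strongest 44504 peaks, the WT LPS libraries held 532 regions alone, the KO LPS libraries 599, the WT untreated libraries 652 and the KO untreated libraries 504. Of those 532 regions, 322 were members in the full lists and 210 had a weaker peak in another library. The 322 were 17.8% of the members, so in the rest at least 1 of the 2 WT LPS peaks ranked beyond the length of the shortest list. With a threshold of 20 on -log10 p in every list instead, the counts were 1365 for WT LPS, 160 for KO LPS, 1437 for WT untreated and 154 for KO untreated libraries. This threshold does not make the lists equally long. The strongest 44504 peaks reached down to a -log10 p of 23.2 and 19.5 in the WT LPS lists and 16.2 and 11.9 in the KO LPS lists. They reached down to 19.7 and 20.5 in the WT untreated lists and 7.59 and 14.9 in the KO untreated lists. What part list length has in the number of members was not tested otherwise.

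**Figure D1:**
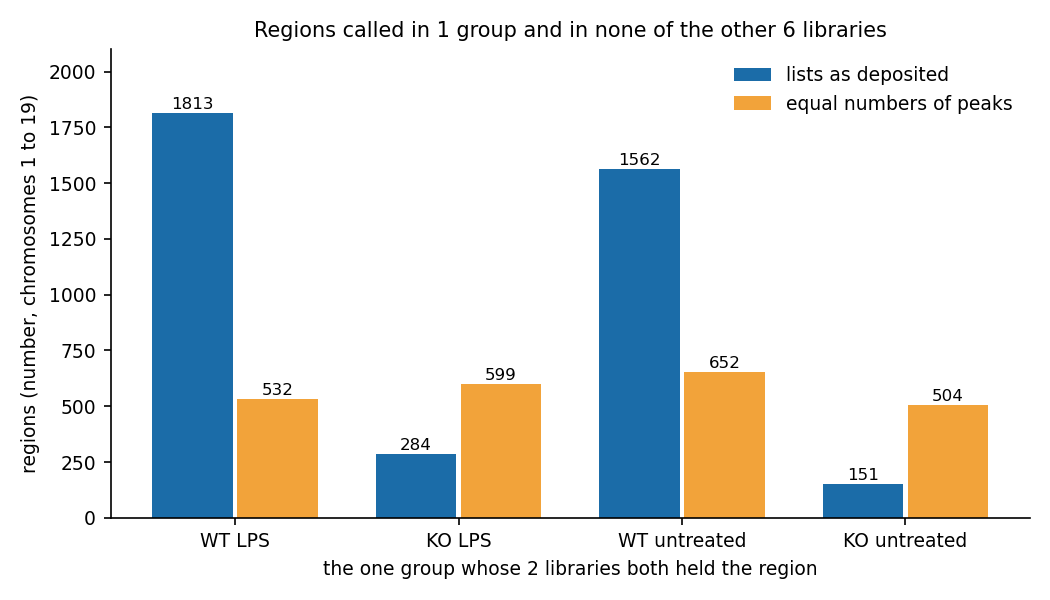
Number of regions on chromosomes 1 to 19 (y axis) called in both libraries of 1 group and in none of the other 6, for the 4 groups (x axis), with the lists as deposited (blue bars) and with 44504 peaks per list (orange bars). The 1813 WT LPS regions stood above the 284 KO LPS regions in the deposited lists, and 532 stood below 599 with equal numbers of peaks.

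Members were weak peaks of the WT LPS lists. Their median fold enrichment was 5.20 in WT LPS replicate 1 (quartiles 4.30 to 6.18, range 1.82 to 12.7) and 5.05 in replicate 2 (4.24 to 5.82, range 2.01 to 11.2). Their -log10 p had a median of 19.7 in replicate 1 (range 8.69 to 65.3) and 17.9 in replicate 2 (range 7.55 to 53.7). The percentile of a peak is the share of its list with a lower -log10 p, and the median member stood at percentile 18.6 in replicate 1 and 15.4 in replicate 2. In both lists at once, 1009 members (55.7%) lay in the weakest 25% of peaks and 6 in the upper 50%. Regions opened in both genotypes stood at median percentiles of 47.2 and 43.0 in the WT LPS lists, with fold enrichments of 7.19 and 6.70, and at 37.6 and 34.8 in the KO LPS lists, with 6.43 and 6.12. Regions also called in 1 KO LPS library lay between the members and these, at 27.3 and 24.0 in the WT LPS lists. The strength of a peak decides whether it is called, so these values describe the rule and were not tested. Regions of other groups alone were about as weak in their own lists, at 15.5 and 14.3 for KO LPS and 14.0 and 14.6 for WT untreated libraries.

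**Figure D2:**
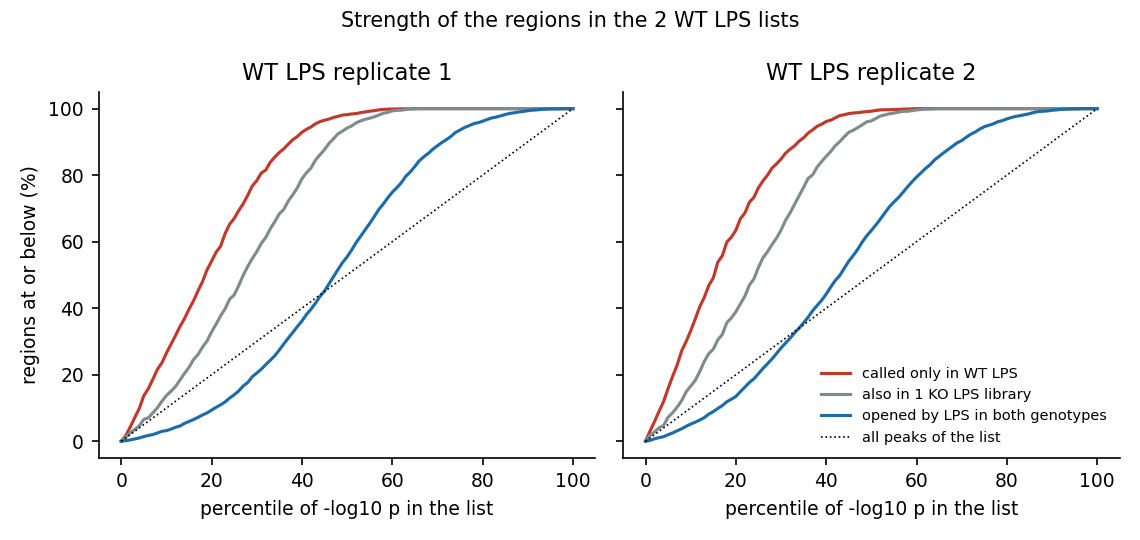
Share of regions (y axis, %) at or below each percentile of -log10 p (x axis) in WT LPS replicate 1 (left) and 2 (right), for regions called only in WT LPS (red), also in 1 KO LPS library (grey) and opened in both genotypes (blue), with all peaks of the list dotted. The red curves rise first, with medians at 18.6 and 15.4, and the blue curves last, with medians at 47.2 and 43.0.

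Members were narrow, with a median width of 297 bp (quartiles 265 to 335). Regions opened in both genotypes had 390 bp and regions called in all 8 libraries 540 bp. Regions of other groups alone were about as narrow, with 282 bp for KO LPS, 299 bp for WT untreated and 289 bp for KO untreated libraries. Regions also called in 1 KO LPS library had 324 bp. The summits of a member in the 2 WT LPS libraries lay a median of 32 bp apart, within 50 bp for 1251 members (69.0%), a closeness that the rule and the width of the members in large part fix. Across the members, fold enrichment in replicate 1 and in replicate 2 had a Spearman correlation of 0.716, against 0.856 across regions opened in both genotypes; both run across regions, which are not independent, and the members cover a narrower range of values. The nearest peak of any of the other 6 libraries lay a median of 4776 bp away. It lay within 1 kb of 352 members (19.4%) and more than 10 kb from 484 (26.7%).

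The strongest members were well inside the WT LPS lists, and by the rule they, like all members, had no peak in KO LPS or untreated cells. The member with the highest mean percentile, 56.5, lay inside Btbd8 (chr5:107455313-107455662), with fold enrichments of 11.2 and 9.46 and a -log10 p of 60.3 and 42.3. A member at Tubb1, the beta-tubulin of platelets, lay 5.38 kb from the gene, with 7.38 and 7.94. Members inside Fars2, a mitochondrial tRNA synthetase, and 3.40 kb from Zfp366, a zinc finger factor studied in dendritic cells, had 11.2 and 9.34, and 9.60 and 9.91. In these 4 the fold enrichment was above that of the median region opened in both genotypes in both libraries. The member near Adra2a, the alpha-2A adrenergic receptor, had 8.72 and 10.7 and was the only region assigned to that gene. Members inside Glis1, a zinc finger transcription factor, and inside Dus2, which makes dihydrouridine in tRNA, had 8.26 and 11.2, and 6.35 and 5.43. Nsmce1, a subunit of the SMC5/6 complex, had a member 7.48 kb away with 5.38 and 5.34. The other 4 of the 12 strongest members had no protein-coding gene within 50 kb. One of them (chr14:78783155-78783542) had the highest fold enrichment of all members in replicate 1, 12.7, and 8.26 in replicate 2.

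At the other end, the weakest members were a region inside Ppp3ca, the catalytic subunit of calcineurin, with fold enrichments of 2.28 and 2.34, and a region 0.254 kb from Gnb4, a G protein beta subunit, with 3.28 and 3.07. Their -log10 p was 9.29 and 10.3, and 9.82 and 8.61. The lists began at a -log10 p of 7.35 to 7.93, so these were close to the lowest value that the files hold. The 2 regions that missed the rule by the weakest KO LPS peak were near Mdm1 and inside Bcl2. The region near Mdm1 had 4.82 in both WT LPS libraries and 3.69 in KO LPS replicate 2, with a -log10 p of 9.32 there. The region inside Bcl2, the inhibitor of apoptosis, had 7.65 and 4.44 in the WT LPS libraries and 3.98 in KO LPS replicate 1, with a -log10 p of 9.59. These near misses were kept out by peaks close to the floor of a list, and absence from a list is not the same as closed DNA.

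Il6, which encodes the cytokine interleukin-6, stood in the longest run of members. Of 7 regions assigned to it, 7 and 7 were called in the WT LPS libraries, 2 and 3 in the KO LPS libraries, 2 and 2 in the WT untreated libraries and 1 and 2 in the KO untreated libraries. Of these 7, 3 were members, which count in the WT LPS libraries alone by the rule, so part of this contrast was fixed in advance. The 3 members lay 47.2 kb (chr5:29965733-29966031), 19.3 kb (chr5:29993641-29993911) and 5.89 kb (chr5:30007072-30007367) before the start site. Their fold enrichments were 7.19 and 6.89, 5.36 and 5.20, and 6.43 and 6.89. A region 40.1 kb before the start site (chr5:29972826-29973257) was opened in both genotypes, with 10.4 and 10.9 in the WT LPS libraries and 8.26 and 5.93 in the KO LPS libraries. The region at the start site itself was called in all 8 libraries, with 10.8 and 10.5 in WT LPS, 13.1 and 12.6 in KO LPS, 10.4 and 10.0 in WT untreated and 8.24 and 9.80 in KO untreated cells. A region 1.64 kb after the start site, inside the gene, had 4.44 and 4.87 in the WT LPS libraries and no peak in either KO LPS library. It was also called without LPS, with 6.53 and 4.44 in the WT untreated libraries and 5.41 in KO untreated replicate 2. A region 7.76 kb after the start site, beyond the end of the gene, had 4.70 and 5.00 in the WT LPS libraries and 4.33 in KO LPS replicate 2. Both KO LPS libraries thus had a peak at the start site and 40.1 kb before it, and in WT LPS the 3 members were weaker peaks than those 2 regions. Of the 3, the farthest had a -log10 p of 26.8 and 24.99, above the lowest value kept with equal numbers of peaks in both WT LPS lists (23.2 and 19.5). The one at 5.89 kb, with 22.3 and 24.99, fell short in replicate 1, and the one at 19.3 kb, with 16.3 and 15.5, in both. With 2 more members farther upstream, which lie more than 50 kb from a gene, those of Il6 formed a run of 5 members over 113 kb in which neighbours were at most 50 kb apart. No other run had more than 4 members, and 1349 members had no other within 50 kb.

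**Figure D3:**
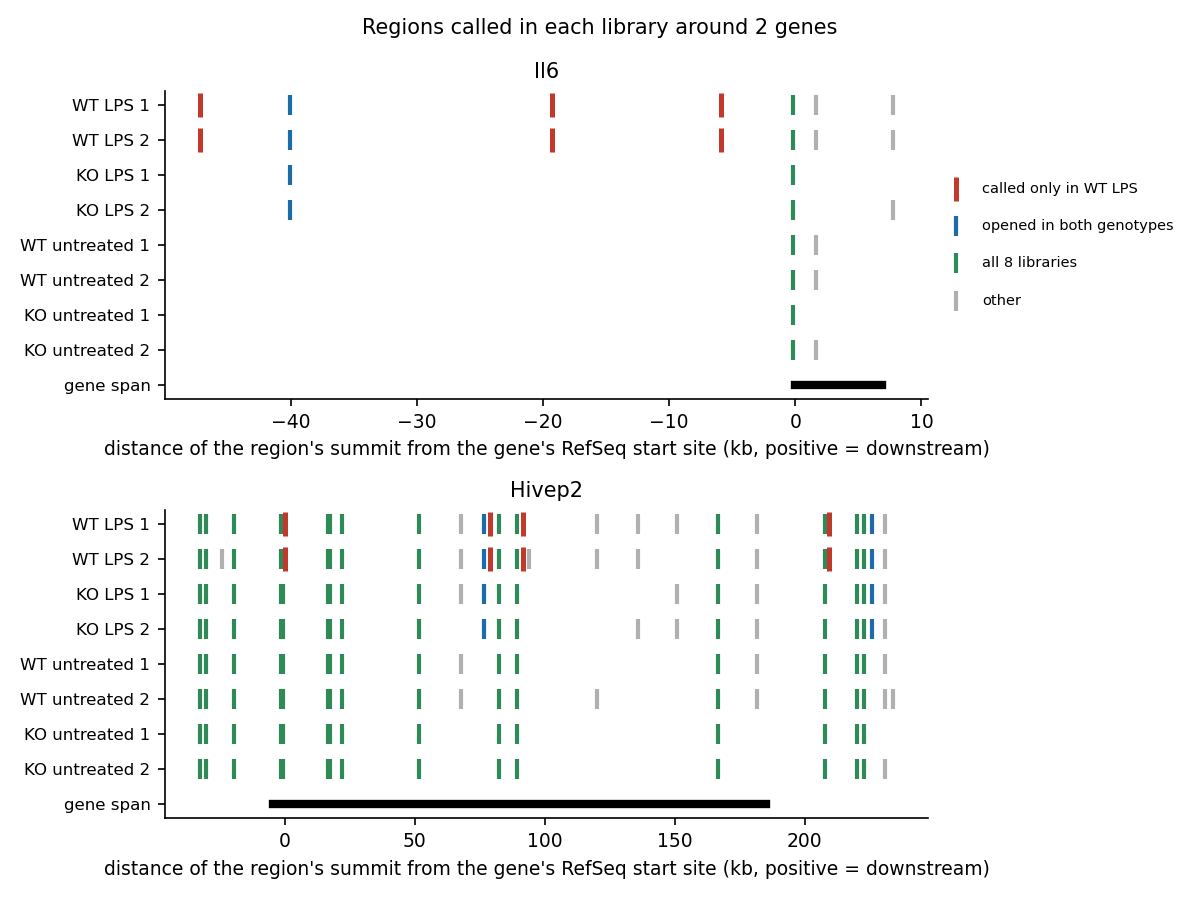
Regions called in each of the 8 libraries (rows) by distance of the summit from the RefSeq start site (x axis, kb, positive downstream) for Il6 and Hivep2, coloured by the libraries that held them, with the gene span in black. The 3 members of Il6 and the 4 of Hivep2 (red) stand in the 2 WT LPS rows alone, among other regions, many but not all of which the KO LPS rows also hold.

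Across genes, 1348 of the 14872 protein-coding genes with any region had a member, which is 9.06%, and 1158 of them had 1. This share followed the number of regions a gene has, at 2.09% of genes with 1 to 2 regions, 17.1% with 6 to 10 and 47.7% with 21 or more. The most members, 5, were assigned to Hibadh, an enzyme of valine breakdown, and 4 each to Arhgap26, Etv6, an ETS-family repressor, Hivep2, a zinc finger protein that binds kB-like sites, and Pde4b, a phosphodiesterase that degrades cAMP. At Hibadh the lists held 14 and 12 regions in WT LPS, 6 and 6 in KO LPS, 5 and 4 in WT untreated and 4 and 4 in KO untreated libraries. None of its regions was opened in both genotypes, and the 5 members had fold enrichments of 4.40 to 8.72. At Hivep2 the lists held 27 and 28 regions in WT LPS, 21 and 21 in KO LPS, 18 and 20 in WT untreated and 15 and 16 in KO untreated libraries. The members of Hibadh and Hivep2 count in WT LPS alone by the rule, which fixed part of these contrasts in advance. Hivep2 had 2 regions opened in both genotypes, and of its 4 members 1 lay 180 bp after the start site, with 2.79 and 2.97. Pde4b had 4 and Etv6 3 regions opened in both genotypes beside their 4 members.

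The gene lists are described by counts alone, and a share is to be read against the number of regions its genes have. Among 32 inflammatory cytokine and enzyme genes with a region, 8 (25%) had a member, and 14 (43.8%) had a region opened in both genotypes, against 14.8% of all genes. The 8 were Il6, Ccl3, Edn1, Il1b, Ccl5, Ptges, Ptgs2 and Il1a. A member 12.9 kb from Ccl3, a chemokine for monocytes, had fold enrichments of 5.56 and 4.70, and a second 0.601 kb away had 2.22 and 2.34. Edn1, the peptide endothelin-1, had 2 members with 5.39 and 5.43, and 4.96 and 4.26. In this list 13 of 233 regions (5.58%) were members, against 1581 of 67600 (2.34%) over all genes. Leaving out a library takes away 1 condition of the rule, so higher counts of genes were then largely fixed in advance. Without WT LPS replicate 1, the rule gave 16 inflammatory, 13 interferon and 11 adhesion genes with a member. Without WT LPS replicate 2 it gave 15 inflammatory, 14 NF-kB, 15 Toll-like receptor and MAP kinase, 13 interferon and 16 adhesion genes, and without KO LPS replicate 1 it gave 14 NF-kB, 12 interferon and 8 adhesion genes. With equal numbers of peaks these lists had 3 inflammatory, 4 NF-kB, 5 Toll-like receptor and MAP kinase, 4 interferon and 2 adhesion genes, and the macrophage identity list had 2.

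In the NF-kB pathway and its feedback, 8 of 30 genes (26.7%) had a member, which is 8 of 266 regions (3.01%). The member 3.86 kb from Tnfaip3, the deubiquitinase A20 that restrains NF-kB, had 4.40 and 3.61, with a -log10 p of 46.5 and 28.7. Tnip2, an A20-binding protein, had a member with 3.71 and 3.53, and Birc3, the ubiquitin ligase cIAP2, had one with 8.56 and 6.50. Tnfaip3 had 3 and Birc3 2 regions opened in both genotypes, so the members stood beside shared LPS-opened regions at both. In Toll-like receptor and MAP kinase signalling, 8 of 35 genes (22.9%) had a member, 13 of 302 regions (4.30%). Dusp16, a phosphatase of JNK and p38, had 3 with fold enrichments of 7.18 and 6.46, 7.34 and 4.81, and 4.17 and 3.27. Tab2, an adaptor of the kinase TAK1, had 2, and so had Dusp1, another MAP kinase phosphatase. The members of Dusp1 had 2.38 and 2.01, and 1.99 and 2.35, near the lowest of all members. In the interferon response, 7 of 42 genes (16.7%) had a member, 7 of 275 regions (2.55%), which is close to the 2.34% over all genes. Among these, Ifit2, an interferon-induced RNA-binding protein, had 4.11 and 4.05, Usp18, which removes ISG15 from proteins, had 6.13 and 6.94, and the transcription factor gene Irf1 had 5.94 and 6.30.

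Macrophage identity genes had a member in 8 of 29 cases (27.6%), 13 of 313 regions (4.15%). Zeb2, a transcription factor of the macrophage lineage, had 3 members, the strongest with 7.75 and 6.18. Runx1, a factor of blood formation, also had 3, all under 5 in both libraries, and Cebpb, a C/EBP factor, had 2. No gene of 16 for alternative activation and scavenging had a member among 131 regions, while 6 of the 16 (37.5%) had a region opened in both genotypes. With a threshold of 20 on -log10 p in every list, 3 of them had one. Adhesion, migration and the cytoskeleton gave 5 of 35 genes (14.3%), with Vcl, Tln1 and Cd44 first, and 6 of 325 regions (1.85%), below the 2.34% over all genes. Glycolysis and hypoxia gave 3 of 20 (15%), namely Pfkfb3, Egln3 and Hk2, and 4 of 152 regions (2.63%). The cell cycle gave 5 of 26 (19.2%), among them Mcm5, Cdkn1a and Ccne1, and 5 of 168 regions (2.98%). Without WT LPS replicate 2, which loosens the rule, the cell cycle had 9 genes with a member and the nuclear envelope 8. The nuclear envelope and lamina gave 5 of 23 (21.7%), and 5 of 122 regions (4.10%), and 1 of the 23 genes had a region opened in both genotypes. These 5 with a member were Nup98 of the nuclear pore, with 6.25 and 7.62, Tor1a and its partner Tor1aip1, with 3.18 and 3.40, and 4.14 and 3.37, and Tmpo and Sun2.

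Marker genes of other cells are given beside these. Stromal and endothelial markers had a member in 5 of 11 genes (45.5%), in Pdgfrb, Cdh5, Pecam1, Vwf and Kdr, and in 6 of 69 regions (8.70%). The member 0.092 kb from a gene end of Cdh5, VE-cadherin, had 6.13 and 4.42. Stem and progenitor markers had one in 3 of 10 genes (30%), in Myb, Mecom and Spink2. B cell markers had one in 1 of 6 genes, Ms4a1, and dendritic cell markers in 1 of 10, Ccr9, whose member had 7.35 and 7.65. T and NK cell, neutrophil, and erythroid and megakaryocyte markers had none in 10, 11 and 6 genes. The shares of the LPS lists thus lay within the range of these other lists, whose genes had a median of 2 to 6 regions, against 5 to 10 for the LPS and macrophage lists and 3 for all genes. With equal numbers of peaks, 24 of the genes of all 17 lists had a region of WT LPS libraries alone, against 67 as deposited, and 0 of the stromal and endothelial, stem and progenitor, and nuclear envelope genes did. The part of such cells in the members was not tested.

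Set against regions opened in both genotypes, members of the full lists lay more often at gene ends and inside genes and less often in gene-poor parts of the genome. Regions of WT untreated libraries alone and regions closed by LPS in both genotypes had like shares inside genes and in gene-poor windows. Within 1 kb of either end of a gene there were 113 members, 6.23% (95% Wilson interval 5.21 to 7.44), against 170 (4.65%) of the regions opened in both genotypes, a difference of 1.59 percentage points (95% Newcombe interval 0.328 to 2.95). Regions of WT untreated libraries alone stood there in 9.48% and regions called in all 8 libraries in 28.9%. Inside genes there were 1014 members, 55.9% against 52.1%, a difference of 3.82 points (1.02 to 6.61). In 1 Mb windows with 2 or fewer genes there were 143 members, 7.89% against 11.1%, a difference of -3.21 points (-4.78 to -1.56). Regions of WT untreated libraries alone lay inside genes in 56.1% and in gene-poor windows in 8.26% of cases. For regions closed by LPS in both genotypes these were 55.7% and 8.35%, so neither share was particular to the members. Regions of KO LPS libraries alone differed in gene-poor windows, with 54.9% inside genes and 17.3% (13.3 to 22.1) in such windows. Regions also called in 1 KO LPS library stood at 53.7% and 10.1%. Regions are not replicates, so these intervals cover counting error only. With equal numbers of peaks the difference at gene ends was 0.472 points (-1.34 to 2.84) and inside genes 1.61 (-2.96 to 6.14), and among weak regions of both classes, with a mean percentile under 30, the difference in gene-poor windows was -1.64 (-4.13 to 0.669), each with an interval that holds 0. For members with no other library's peak within 1 kb, the difference at gene ends was 0.00381 (-1.21 to 1.36). With a threshold of 20 on -log10 p it was 1.17 (-0.223 to 2.72), and inside genes 2.04 (-1.14 to 5.21). Of the members at gene ends, the strongest were at Stimate, a regulator of calcium entry, with 6.11 and 5.50, Slc28a2 as above, Nmnat2, an NAD-synthesising enzyme, with 6.43 and 8.11, Mkrn2, a ubiquitin ligase, with 6.75 and 6.39, and Aldh1b1, a mitochondrial aldehyde dehydrogenase, with 5.27 and 5.71.

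**Figure D4:**
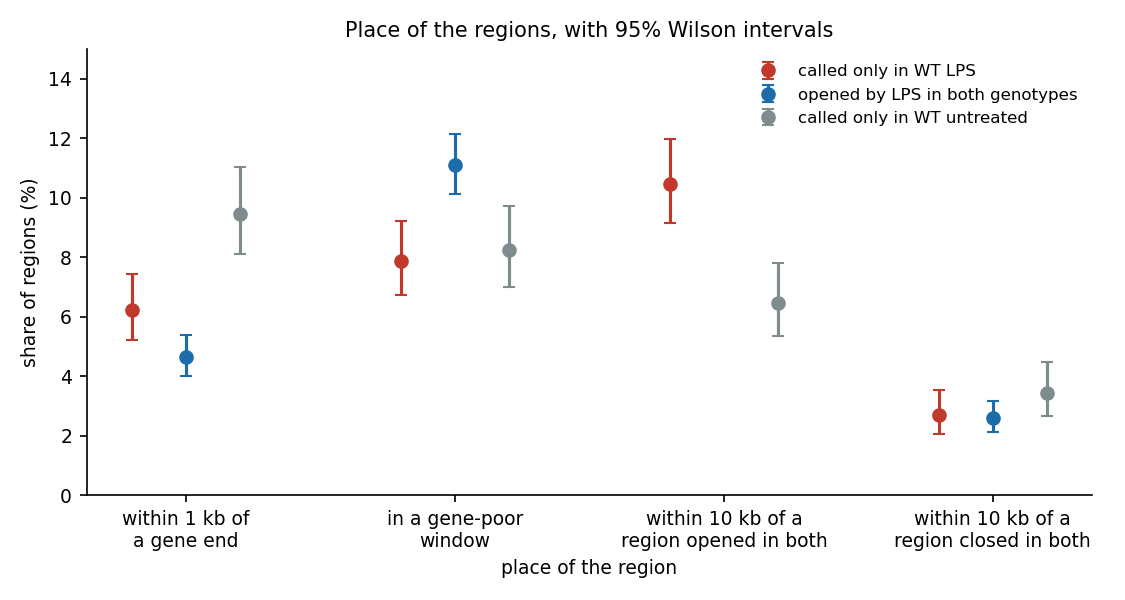
Share of regions (y axis, %, with 95% Wilson intervals) in 4 places (x axis) for regions called only in WT LPS (red), opened in both genotypes (blue) and called only in WT untreated (grey); blue has no point for nearness to its own class. Members stand above blue at gene ends (6.23% against 4.65%), below it in gene-poor windows (7.89% against 11.1%) and above grey near regions opened in both genotypes (10.5% against 6.47%).

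Members lay more often near other LPS-opened regions than regions of WT untreated libraries alone did. Within 10 kb of a region opened in both genotypes there were 190 members, 10.5% (9.15 to 11.97). Of the regions of WT untreated libraries alone 6.47% were, a difference of 4.01 points (2.14 to 5.88). Regions also called in 1 KO LPS library were there in 14.0% of cases (12.3 to 15.9). For regions of KO LPS libraries alone it was 9.15% (6.32 to 13.1) and for regions called in all 8 libraries 8.49%. This nearness was thus not particular to the members. Within 10 kb of a region closed by LPS in both genotypes, a class of 1353 (1.8% of regions), there were 49 members (2.70%) against 54 (3.46%), a difference of -0.754 (-1.97 to 0.413) whose interval holds 0. The interval left out 0 with a threshold of 20 on -log10 p (-1.78, from -3.05 to -0.542), with no other library's peak within 1 kb (-1.47, from -2.66 to -0.307), at a distance of 20 kb (-3.85, from -5.56 to -2.21) and without KO untreated replicate 1 (-1.42, from -2.76 to -0.0890). Nearness to regions called in all 8 libraries was similar, at 46.3% and 45.8%. Of the 1348 genes with a member, 483 (35.8%) also had a region opened in both genotypes, against 313 of 1267 (24.7%) genes with a region of WT untreated libraries alone and 2194 (14.8%) of all genes. The 483 were 22.0% of those 2194 genes. Genes with more regions had a member more often, as given above, and these shares were not adjusted for the number of regions.

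The neighbourhood of the members was examined in every library with the members themselves left out, so that the KO libraries could be compared as well. Of the peaks of a list, 4.15% and 4.18% lay within 10 kb of a member in the WT LPS libraries, against 3.80% and 3.83% in the WT untreated libraries. In KO cells 4.25% and 4.23% did with LPS, against 3.75% and 3.71% untreated. All 4 LPS libraries thus stood above all 4 untreated ones, in both genotypes. The group means were 4.16% ± 0.0246 in WT LPS and 3.82% ± 0.0218 in WT untreated libraries, a difference of 0.344 points, and 4.24% ± 0.0159 in KO LPS and 3.73% ± 0.0287 in KO untreated libraries, a difference of 0.506 points (SD, n = 2 each). Averaged over genotypes, LPS libraries had 4.20% and untreated libraries 3.78%, a difference of 0.425 points with an exact two-sided permutation p of 0.056, the smallest that 36 arrangements allow (0.111 adjusted over 2 tests). KO and WT libraries had 3.99% each, with a difference of -0.00482 points and an exact permutation p of 0.889. That mean joins opposite orders. With LPS both KO libraries (4.25% and 4.23%) stood above both WT libraries (4.15% and 4.18%). Untreated, both KO libraries (3.75% and 3.71%) stood below both WT libraries (3.80% and 3.83%). This crossing was not tested. With equal numbers of peaks the difference of KO and WT libraries was -0.0661 points, with an exact permutation p of 0.167. Around the regions of WT untreated libraries alone the order was the opposite, with 3.48% and 3.43% in WT LPS against 3.55% and 3.57% in WT untreated libraries, and 3.44% and 3.45% in KO LPS against 3.57% and 3.59% in KO untreated libraries. The share of other peaks near the members was thus higher in both KO LPS libraries than in both KO untreated libraries. That the members themselves were not called in KO cells is the rule. Members were also chosen as called with LPS and not without it. How far that choice sets the order of the libraries around them was not tested.

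**Figure D5:**
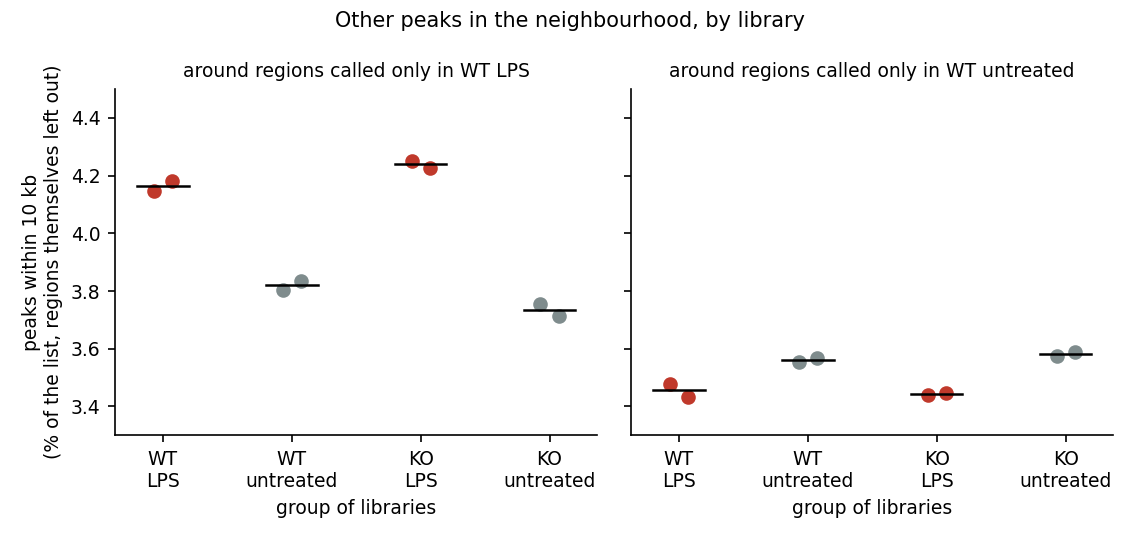
Share of each list's peaks (y axis, %, on an axis that does not start at 0) within 10 kb of a region called only in WT LPS (left) or only in WT untreated (right), by group (x axis), with 1 point per library and the group mean as a line. On the left the LPS points lie at 4.15 to 4.25 and the untreated ones at 3.71 to 3.83, and on the right the order is reversed.

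By chromosome, members made up 1.82% (chromosome 7) to 3.47% (chromosome 14) of regions. On chromosome 3, which carries Lmna, the share was 2.59%, and within 5 Mb of Lmna 8 of 506 regions (1.58%) were members. The X chromosome, outside the rule, had 31 regions called only in the WT LPS libraries and 47 called only in the WT untreated libraries.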

How the data were processed

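ATAC-seq libraries of 8 macrophage samples were analysed from deposited peak lists, 1 per library, with replicates called separately. Of the tools, BWA 0.7.12 and MACS2 are named with build mm10 in the submitters' processing notes; other settings and the filter behind the lists are not given in the sources used here. In each list the authors deposited a fold enrichment, a ratio over local background made within 1 library. The authors also deposited -log10 p and -log10 q values and a score for every peak. Read counts and depth were not used here, so no depth-based interval is given, and peak number per list stands for sensitivity. Source names add the word untreated to the LPS libraries; titles and treatment fields were followed.

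Peaks overlapping by 1 bp or more were merged (Python 3.11.15, pandas 2.3.3, scipy 1.17.1), and any overlapping peak counted as a call of the region. A region was assigned to the RefSeq protein-coding gene (21887 genes, GRCm38.p6) that contains its summit, otherwise to the nearest gene end within 50 kb. Promoter sequences are RefSeq's and hold no gene of chromosome 18. Shares carry 95% Wilson intervals and differences 95% Newcombe intervals. Library values were compared by an exact permutation test, two-sided, shuffling 1 factor within levels of the other, 2 tests, Benjamini-Hochberg adjusted. Scripts were tested on simulated data.

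Members and the 17 gene lists were chosen with earlier results of these data known, so lists have counts and no test; 384 of their 387 genes were matched. Genes named are the 12 strongest members, genes with 4 or more members, up to 3 genes per list, the 5 strongest members at gene ends, and the 2 weakest members with the 2 nearest misses; others were named after their values were seen. Alternatives were equal numbers of peaks, a threshold of 20 on -log10 p, other overlaps and distances, and each library left out.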

Additional observations from a re-analysis of the deposited data

How the results depend on the processing

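Equal numbers of peaks gave 532 members in place of 1813, 6.20% of them in gene-poor windows, 24 list genes in place of 67, a median percentile of 33.5 in place of 17.0 and a median fold enrichment of 6.57 in place of 5.13 (means of the 2 WT LPS lists). The differences from regions opened in both genotypes were then 0.472 points at gene ends and 1.61 inside genes, with intervals that hold 0. A threshold of 20 on -log10 p gave 1.17 and 2.04 for these, also with intervals that hold 0, 1.98% of members near regions closed in both genotypes and a difference of -1.78 there, whose interval leaves out 0, with a percentile of 33.6 and a fold of 6.38. Asking that no other library had a peak within 1 kb gave 4.65% at gene ends, a difference of 0.00381, 1.98% near closed regions with a difference of -1.47, whose interval leaves out 0, and a fold of 5.30. Gene ends of 500 bp and 2 kb held 3.47% and 11.4% of members. Nearness of 5 kb and 20 kb gave 5.57% and 20.7% for opened and 1.54% and 4.47% for closed regions, with a difference of -3.85 for closed ones at 20 kb, whose interval leaves out 0. Ranking by fold enrichment gave a percentile of 23.2. Of the alternatives chosen after seeing the data, a mean percentile under 30 gave -1.64 in gene-poor windows and 1.963 for gene ends, both with intervals that hold 0. Around the regions of WT untreated libraries alone, the difference of LPS and untreated libraries in neighbouring peaks was -0.122 and that of KO and WT libraries 0.00460. The KO difference around members was 0.00903 at 5 kb, 0.0150 at 20 kb and -0.0661 with equal numbers of peaks. The causes were not tested.

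Leaving out each library gave 1833 to 4768 members, with 3305 when WT LPS replicate 1 was left out, 4768 for WT LPS replicate 2 and 2814 for KO LPS replicate 1. Each removal takes away 1 condition of the rule, so higher counts of members and of list genes were largely fixed in advance. The shares ran from 6.03% to 7.11% at gene ends, 55.1% to 56.98% inside genes, 7.40% to 8.71% in gene-poor windows, 10.1% to 14.1% near opened and 2.69% to 4.05% near closed regions. Their differences ran from 1.12 to 2.24, 2.81 to 4.58, -3.72 to -2.22, 2.997 to 6.32 and -1.42 to -0.357; the last left out 0 without KO untreated replicate 1. List genes with a member numbered 68 to 122, the percentile ran from 11.5 to 19.6 and the fold from 4.85 to 5.22. The LPS difference in neighbouring peaks ran from 0.415 to 0.435 and the KO difference from -0.0150 to 0.00532.

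Replicate numbers did not pair the libraries, with correlations of deviations of -0.0792 to 0.0340 over 6 pairs of groups. With a replicate block the LPS difference was 0.425 (exact permutation p = 0.125, the smallest that this block allows) and the KO difference -0.00482 (exact permutation p = 0.875).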
